A study of Homo sapiens with 6 samples.

Results

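The genes examined here were AURKA, AURKB, STMN1, KPNA2 and MKI67, which were taken by symbol from a list of names and make up 5 of the 84 cell cycle genes on a quantitative PCR (qPCR) array. The array was run on HMC-1.2 cells, a human neoplastic mast cell line that carries the KIT mutations D816V and V560G, as the sample labels write them, in every group. The cells received 50 µM SPHK2-I (ABC294640, an inhibitor of sphingosine kinase 2), 5 µM SPHK1-I (SKI-178, an inhibitor of sphingosine kinase 1) or DMSO at 0.1% as the vehicle, each over 24 h, with 2 samples in each of the 3 groups. The comparisons ask how each inhibitor changed cell cycle mRNA relative to vehicle and whether the inhibitors differed, but their doses were not the same, so differences between them are not at a matched dose. The sources used here do not say whether the 2 samples of a group were separate cultures. The p-values therefore reflect no more than how far duplicates lay apart, for the gene itself and, in part, for the other genes of the array. None of the 8 mast cell markers on a fixed list was on the array (0 of 8), so the cell type could not be checked against its markers.

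The 5 genes act in mitosis and in dividing cells. Aurora A kinase (AURKA) works at centrosomes and spindle poles, Aurora B kinase (AURKB) is the catalytic subunit of the chromosomal passenger complex, stathmin (STMN1) destabilises microtubules, importin α1 (KPNA2) carries proteins with a nuclear localisation signal into the nucleus, and Ki-67 (MKI67) coats mitotic chromosomes and is widely used as a marker of proliferation. Transcripts of such genes commonly accumulate toward mitosis, and the promoter elements described for many of them are CCAAT boxes bound by NF-Y and the cell cycle homology region (CHR).

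In the RefSeq annotation of GRCh38.p14, AURKA lies at chr20:56369390-56392215, AURKB at chr17:8204731-8210575, STMN1 at chr1:25884179-25906880, KPNA2 at chr17:68035735-68046854 and MKI67 at chr10:128096659-128126423. The RefSeq promoter table held 4 of the 5 genes (AURKB, STMN1, KPNA2 and MKI67), and the 250 bases before the first start it lists were searched on both strands. The letters searched were CCAAT (NF-Y), TTTGAA or TTCGAA (CHR), and TTTCGCGC, TTTGGCGC or TTTCCCGC (E2F). The KPNA2 and MKI67 windows are shown because they lie wholly outside the annotated gene and each held both a CCAAT box and a CHR. They were read 5′ to 3′ on the strand of the gene, from chr17:68035485-68035734 (plus strand) and chr10:128126424-128126673 (minus strand), with the matches in capitals.
KPNA2: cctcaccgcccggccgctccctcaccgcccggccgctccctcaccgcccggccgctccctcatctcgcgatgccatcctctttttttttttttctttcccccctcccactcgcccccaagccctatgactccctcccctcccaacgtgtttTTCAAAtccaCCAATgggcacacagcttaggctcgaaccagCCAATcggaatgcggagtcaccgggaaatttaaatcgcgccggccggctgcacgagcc
MKI67: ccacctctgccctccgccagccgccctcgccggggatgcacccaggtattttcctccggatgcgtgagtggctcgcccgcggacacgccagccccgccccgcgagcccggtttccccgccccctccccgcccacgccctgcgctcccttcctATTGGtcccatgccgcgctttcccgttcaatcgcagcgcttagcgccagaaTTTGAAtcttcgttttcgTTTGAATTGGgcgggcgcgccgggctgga
In KPNA2 the CHR match began 99 bases before the start, on the opposite strand, and CCAAT began 89 and 58 bases before it. In MKI67 the matches to CCAAT, both on the opposite strand and so written ATTGG, began 98 and 24 bases before the start, and TTTGAA began 47 and 29 bases before it, the last one sharing its final letter with the nearer ATTGG. The windows of AURKB and STMN1, which lie inside the annotated gene and are not printed, each held CCAAT (153 bases before the start on the opposite strand in AURKB, 75 bases in STMN1), and STMN1 held TTTGGCGC 38 bases before its start. CCAAT was thus in 4 of the 4 windows, against 32.0% of all 35116 promoters of that length and 33 of the 67 array genes in the table. A CHR match was in 2 of the 4 windows, 14.3% of all promoters and 19.4% of the array genes, and an E2F match in 1 of the 4, 2.32% and 11.9%. These are matches of letters and no binding was measured.

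Every measurement of the 5 genes lay well inside the range of the assay. The threshold cycle (Ct), a log2 quantity in which a later cycle means less mRNA, ranged between 24.1 and 29.21 for the 5 genes in the 6 samples, and none of them passed a Ct of 30. SPHK1-I sample 2 stood apart, with a mean Ct of 24.3 for the reference genes compared with 22.1 to 22.7 elsewhere, and 37 of the 84 genes above a Ct of 30 compared with 9 to 13 elsewhere. The Ct of its 5 genes lay between 27.46 and 29.21. Its control wells for reverse transcription had a mean Ct of 24.4 (24.1 to 24.3 in the other samples) and its PCR control wells 21.4 (21.4 to 21.7). The part of the later Ct in the results was not tested, and the changes of the 5 genes with SPHK1-I are therefore also given without it. Levels below are relative to a mean of RPLP0, HPRT1, GAPDH and B2M (2 to the power of minus ΔCt) and are compared only within a gene, because the efficiencies of the assays are not given in the sources used here.

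With SPHK2-I, all 5 genes were below both vehicle samples in both inhibitor samples, and AURKA, AURKB, KPNA2 and MKI67 fell (4 of 5, adjusted p below 0.05 with limma across the 84 genes). Of all 84 genes, 23.8% were called lower in this comparison and 60.7% lay below both vehicle samples, so the order of the samples alone is shared by most of the array. The median log2 change was −0.83 for the 5 genes and −0.25 for the 84. Levels in the SPHK2-I cells averaged 38.9% of vehicle for AURKA, 50.0% for MKI67, 56.2% for KPNA2, 58.8% for AURKB and 74.5% for STMN1.

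With SPHK1-I, AURKB, STMN1, KPNA2 and MKI67 fell (4 of 5) and AURKA did not pass the test. Over the 84 genes 31.0% were called lower and 57.1% lay below both vehicle samples, and the same 4 of the 5 genes did so. The median log2 change was −0.67 for the 5 genes and −0.35 for the 84. Average levels were 53.3% of vehicle for KPNA2, 60.4% for MKI67, 62.9% for STMN1, 63.1% for AURKB and 103% for AURKA. Both comparisons use the same vehicle samples.

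**Figure D1:**
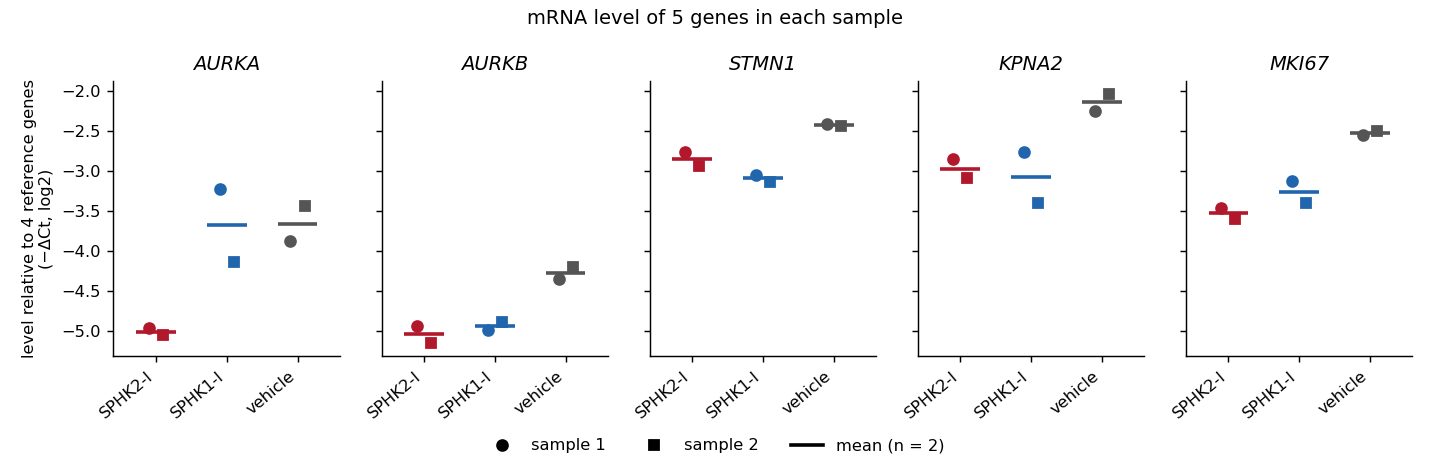
mRNA level of each gene (y axis, −ΔCt, log2, relative to 4 reference genes) in the 2 samples of each group (circle, sample 1; square, sample 2; line, mean, n = 2). In all 5 panels both SPHK2-I samples lie below both vehicle samples, while the SPHK1-I samples of AURKA lie on either side of the vehicle samples.

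AURKA, the kinase of the spindle poles, was the member with the largest fall and with the largest difference between the inhibitors. Its relative level was 0.0321 and 0.0301 with SPHK2-I, 0.107 and 0.0569 with SPHK1-I, and 0.0681 and 0.0918 with vehicle. The SPHK2-I duplicates were close together and under every other sample, SPHK1-I sample 1 was the highest of the 6, and SPHK1-I sample 2 was under both vehicle samples. The group means were 0.0311 ± 0.00138 with SPHK2-I, 0.0821 ± 0.0355 with SPHK1-I and 0.0799 ± 0.0168 with vehicle (SD, n = 2 each). SPHK2-I lowered AURKA by 2.54-fold relative to vehicle (log2 change −1.35, SE 0.303, 95% interval −2.06 to −0.64, limma adjusted p = 0.0125), and only 1 of the 84 genes, CCNB1 (cyclin B1), fell further. The change with SPHK1-I was −0.02 (95% interval −0.73 to 0.69, limma adjusted p = 0.956), and this interval includes changes as large as that of AURKB with the same inhibitor. The duplicates of AURKA were far apart in 2 groups. They differed by 0.91 on the log2 scale with SPHK1-I, the 9th largest gap of the 84 genes (median 0.40), and by 0.43 with vehicle, the 2nd largest (median 0.10), against 0.09 with SPHK2-I (median 0.11). Without SPHK1-I sample 2 the log2 change of AURKA with SPHK1-I was 0.44, and without SPHK1-I sample 1 it was −0.47, so its direction with this inhibitor was set by the sample kept.

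AURKB, the other Aurora kinase on the list, fell with both inhibitors. Its level was 0.0328 and 0.0281 in SPHK2-I samples, 0.0314 and 0.0339 in SPHK1-I samples and 0.0491 and 0.0544 in vehicle samples. The inhibitor samples interleaved and all 4 were under both vehicle samples. The log2 change was −0.77 with SPHK2-I (SE 0.165, 95% interval −1.16 to −0.38, limma adjusted p = 0.0115, 1.70-fold lower) and −0.66 with SPHK1-I (95% interval −1.05 to −0.28, limma adjusted p = 0.0183, 1.58-fold lower). The SPHK1-I duplicates were 0.11 apart on the log2 scale, the 72nd largest of the 84 gaps in that group, in contrast to AURKA in the same RNA.

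STMN1, which encodes the microtubule destabiliser stathmin, was called lower in SPHK1-I cells and did not pass the threshold in SPHK2-I cells. The level was 0.148 and 0.130 with SPHK2-I, 0.121 and 0.114 with SPHK1-I, and 0.188 and 0.185 with vehicle. The 3 groups did not overlap, with SPHK1-I the lowest and vehicle the highest. The log2 change was −0.43 with SPHK2-I (SE 0.156, 95% interval −0.79 to −0.06, limma adjusted p = 0.0749) and −0.67 with SPHK1-I (95% interval −1.03 to −0.30, limma adjusted p = 0.0153, 1.59-fold lower). Direct comparison of the inhibitors gave 0.24 (95% interval −0.13 to 0.61, limma adjusted p = 0.304), so a difference between them was not shown. STMN1 had the smallest change of the 5 genes with SPHK2-I, rank 32 from the lowest of the 84, and its vehicle duplicates were only 0.03 apart on the log2 scale.

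KPNA2, the nuclear import receptor, fell with both inhibitors. Levels were 0.138 and 0.117 with SPHK2-I, 0.147 and 0.0946 with SPHK1-I, and 0.210 and 0.244 with vehicle. Both SPHK2-I values lay between the 2 SPHK1-I values, and all 4 were under the vehicle samples. The log2 change was −0.83 with SPHK2-I (SE 0.238, 95% interval −1.39 to −0.27, limma adjusted p = 0.0354, 1.78-fold lower) and −0.94 with SPHK1-I (95% interval −1.50 to −0.38, limma adjusted p = 0.0192, 1.92-fold lower). Without SPHK1-I sample 2 the change with SPHK1-I was −0.62, and without sample 1 it was −1.26, a range wider than for AURKB (−0.72 and −0.61) and STMN1 (−0.63 and −0.71).

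MKI67, the Ki-67 gene, had levels of 0.0907 and 0.0825 with SPHK2-I, 0.115 and 0.0943 with SPHK1-I, and 0.170 and 0.176 with vehicle. The groups were again fully apart, with SPHK2-I the lowest. MKI67 fell 2.00-fold with SPHK2-I (log2 change −1.00, SE 0.169, 95% interval −1.40 to −0.61, limma adjusted p = 0.00687), which was the smallest p of the 5 genes and the 6th smallest of the 84. With SPHK1-I it fell 1.66-fold (log2 change −0.73, 95% interval −1.13 to −0.34, limma adjusted p = 0.0153; −0.59 without SPHK1-I sample 2).

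Set against each other, the inhibitors differed in 1 of the 5 genes. AURKA in SPHK2-I cells was 2.51-fold lower than in SPHK1-I cells (log2 difference −1.33, SE 0.303, 95% interval −2.04 to −0.62, limma adjusted p = 0.0185), which was the 3rd lowest difference of the 84, and both SPHK2-I samples lay below both SPHK1-I samples. Without SPHK1-I sample 2 the difference was −1.78 and without SPHK1-I sample 1 it was −0.87. Over the array 31.0% of the genes were called in this comparison in either direction (15.5% of the 84 lower and 15.5% higher with SPHK2-I), and 58.3% did not overlap, so 1 of 5 called and 3 of 5 not overlapping are no more than the array as a whole shows. No difference was shown for AURKB (−0.11, 95% interval −0.49 to 0.28), KPNA2 (0.11, −0.45 to 0.66) or MKI67 (−0.27, −0.66 to 0.13), with limma adjusted p-values of 0.634, 0.744 and 0.304. Without SPHK1-I sample 2 the differences were −0.05 for AURKB, −0.21 for KPNA2 and 0.20 for STMN1. For MKI67 both SPHK2-I samples were nevertheless below both SPHK1-I samples. Its difference was −0.41 without SPHK1-I sample 2 and −0.12 without SPHK1-I sample 1. The difference of KPNA2 was 0.43 without SPHK1-I sample 1. With 1 SPHK1-I sample left, the spread of that group leaves the model, so only the sizes are given here.

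**Figure D2:**
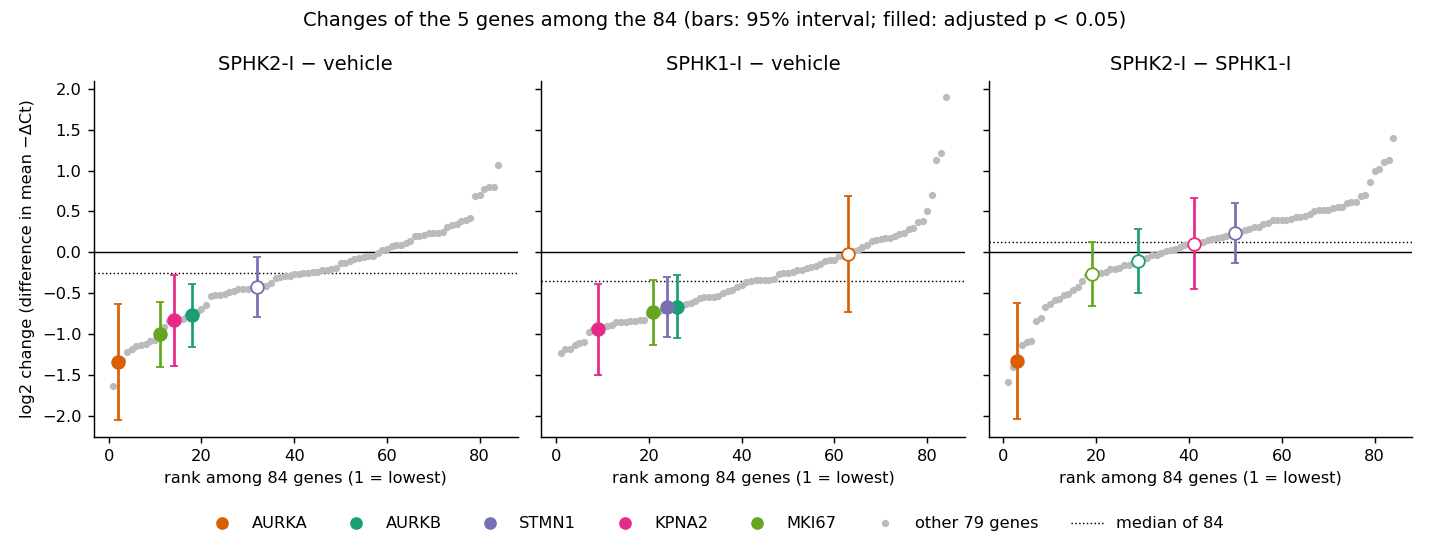
Log2 change (y axis) of all 84 genes in order of rank (x axis, 1 = lowest) for SPHK2-I against vehicle, SPHK1-I against vehicle and SPHK2-I against SPHK1-I; coloured points are the 5 genes with their 95% intervals, filled where the adjusted p was below 0.05, and the dotted line is the median of the 84. AURKA lies at rank 2 with SPHK2-I and at rank 63 with SPHK1-I, while KPNA2 lies at ranks 14 and 9 and AURKB at ranks 18 and 26.

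A ratio of 2 genes within a sample needs no reference gene, and the 5 genes give 10 such ratios. AURKA over AURKB was 0.980 and 1.07 in SPHK2-I samples, 3.41 and 1.68 in SPHK1-I samples and 1.39 and 1.69 in vehicle samples. The SPHK2-I ratios were under all others, and SPHK1-I sample 2 lay between the vehicle samples. The log2 difference of this ratio was −0.58 for SPHK2-I relative to vehicle, 0.65 for SPHK1-I relative to vehicle and −1.22 for SPHK2-I relative to SPHK1-I. AURKA over KPNA2 was 0.232 and 0.258 with SPHK2-I, 0.728 and 0.602 with SPHK1-I, and 0.324 and 0.376 with vehicle, 3 groups without overlap. Its log2 differences were −0.51 for SPHK2-I and 0.92 for SPHK1-I relative to vehicle. AURKA over STMN1 (−0.92 and 0.65) and AURKA over MKI67 (−0.34 and 0.72) gave differences of the same signs. Without SPHK1-I sample 1 the differences of SPHK1-I from vehicle were smaller, at 0.14 for AURKA over AURKB, 0.24 over STMN1, 0.40 over MKI67 and 0.78 over KPNA2, and without sample 2 they lay between 1.03 and 1.16. For AURKA over STMN1, SPHK1-I sample 2 (0.4999) was barely above the higher vehicle sample (0.4967).

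None of the 6 ratios without AURKA separated SPHK1-I from vehicle samples (0 of 6), and the largest difference among them was 0.28 on the log2 scale, for AURKB over KPNA2 (0.65 without SPHK1-I sample 1 and −0.10 without sample 2). The SPHK1-I duplicates were further apart than the others (median gap of the 84 genes 0.40 on the log2 scale, compared with 0.11 with SPHK2-I and 0.10 with vehicle), so that overlap is more frequent there. With SPHK2-I, 6 of 6 were separate from vehicle, the largest being STMN1 over MKI67, which was 1.63 and 1.58 in SPHK2-I samples, 1.05 and 1.21 in SPHK1-I samples and 1.10 and 1.05 in vehicle samples (log2 difference 0.57 from vehicle). The higher STMN1 relative to MKI67 in SPHK2-I samples does not involve any reference gene. Of all 10 ratios, 10 separated SPHK2-I from vehicle, 3 separated SPHK1-I from vehicle and 7 separated the inhibitors. With 2 samples against 2, a two-sided exact permutation test cannot give a p below 0.333, and no other test was run on the ratios. The ratios share genes, and AURKB over KPNA2 counted as separate with SPHK2-I at a difference of only 0.06. How often other gene pairs of the array separate was not counted, so these counts are descriptions.

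**Figure D3:**
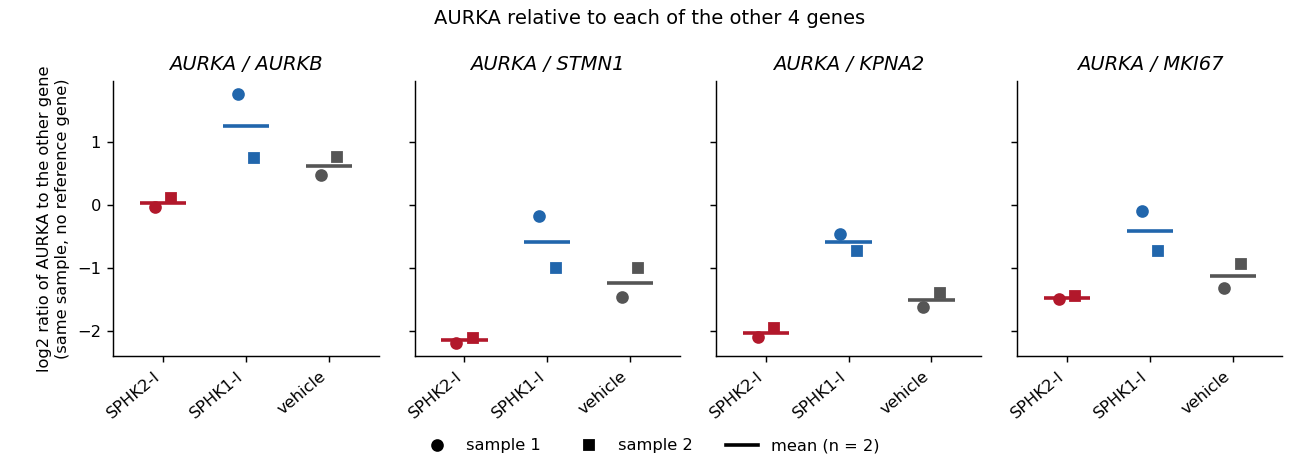
Log2 ratio of AURKA to each of the other 4 genes within a sample (y axis) in the 2 samples of each group (circle, sample 1; square, sample 2; line, mean, n = 2). SPHK2-I samples are the lowest in every panel, and the SPHK1-I samples lie above both vehicle samples in all panels but AURKA / AURKB, where the sample 2 ratio of 1.68 falls between the vehicle ratios of 1.39 and 1.69.

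The genes nearest to each member in profile over the 6 samples also differed between AURKA and the others. The measure was the root mean square difference between the log2 levels of 2 genes, each centred on its own mean, so that a small value means parallel profiles. Nearest to AURKA were CCNB1 (cyclin B1, the activator of CDK1; 0.233) and GTSE1 (a microtubule-binding protein; 0.307), with a median of 0.708 over the 83 other genes. The match was not complete, since both SPHK1-I samples of CCNB1 and of GTSE1 lay below both vehicle samples, unlike those of AURKA. The log2 change with SPHK1-I was −0.55 for CCNB1 and −0.25 for GTSE1, neither of which passed the test, and −0.02 for AURKA. AURKB was only 19th nearest to AURKA (0.587), and AURKA was 74th nearest to AURKB. AURKB was nearest to MKI67 (0.154) and CDK2 (a kinase of S phase entry; 0.167), and MKI67 to SKP2 (a ubiquitin ligase subunit; 0.105) and CCNF (cyclin F; 0.141). STMN1 was nearest to CCNE1 (cyclin E1; 0.0864) and CDC25C (a phosphatase that activates CDK1; 0.105), and KPNA2 to the checkpoint kinase genes CHEK2 (0.0987) and CHEK1 (0.0992). Of these genes, CDC25C had a Ct above 30 in every sample. In SPHK1-I sample 2, at its reference Ct of 24.3, the Ct of several others also passed 30. The −ΔCt there was −7.30 for CHEK2, −6.70 for CHEK1 and CCNF, −6.47 for SKP2, −6.40 for CCNE1 and −5.92 for CDK2. The medians over the other genes were 0.360 for AURKB, 0.393 for MKI67, 0.314 for STMN1 and 0.383 for KPNA2. These are descriptions over 6 samples that share 3 treatments, and most of the array moved in the same direction.

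Related genes of the array were counted in lists that had been chosen with results of these data known. Of 8 genes of the spindle and its checkpoint, 4 fell with SPHK2-I (BIRC5, CDC20, GTSE1 and MAD2L1; median of the 8, −0.59), 0 passed the test with SPHK1-I (1, KNTC1, at an unadjusted p below 0.05; median −0.15), and the same 4 were lower in SPHK2-I cells than in SPHK1-I cells. Over the 84 genes the shares called lower were 23.8% with SPHK2-I, 31.0% with SPHK1-I and 15.5% between the inhibitors, and the counts in lists this short are given as descriptions beside them. BIRC5 encodes survivin, the partner of Aurora B in the chromosomal passenger complex. It changed by −1.22 with SPHK2-I (limma adjusted p = 0.00687) and by 0.37 with SPHK1-I (limma adjusted p = 0.199), and the difference between the inhibitors was −1.59 (limma adjusted p = 0.00652). Its mean −ΔCt was −9.06 with SPHK2-I, at a reference Ct of 22.7, so its mean Ct there passed 30, unlike those of the 5 genes. With SPHK1-I the mean −ΔCt of BIRC5 was −7.46, at reference Ct values of 22.5 and 24.3, so its mean Ct passed 30 there as well. With vehicle it was −7.83, at reference Ct values of 22.25 and 22.06, which put its mean Ct close to 30. AURKB differed by −0.11 between the inhibitors, which did not pass the test. GTSE1 changed by −1.09 with SPHK2-I, KNTC1, a kinetochore protein, by −0.84 with SPHK1-I (limma adjusted p = 0.0690), and CDC20, the activator of the anaphase promoting complex, by −1.41 between the inhibitors.

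Of 6 genes of CDK1 and mitotic entry, 3 fell with SPHK2-I (CCNB1, CCNB2 and CDK1; median of the 6, −0.64) and 2 with SPHK1-I (CDC25C and CDK1; median −0.40), the second of these counts being close to the 31.0% of the array. CCNB1 changed by −1.64 and CCNB2 by −0.78 with SPHK2-I, and CDK1 by −1.10 and CDC25C by −0.70 with SPHK1-I. CDC25C had a −ΔCt of −8.35 and −8.36 with vehicle, at reference Ct values of 22.25 and 22.06, so its Ct passed 30 even there. Between the inhibitors 3 were lower with SPHK2-I (CCNB1, −1.09; CKS2, −0.63; CCNB2, −0.53). Of 5 genes that license replication origins, 1 fell with SPHK2-I (MCM4, −0.82), and the median of the 5 was −0.41. All 5 fell with SPHK1-I (MCM2, MCM3, MCM4, MCM5 and CDC6, median −1.13), compared with 31.0% of the array. Higher with SPHK2-I than with SPHK1-I were 4 (MCM2, MCM3, MCM5 and CDC6), compared with 15.5% of the array. MCM3 changed by −0.52 with SPHK2-I without passing the test, and MCM4 by −1.18 and CDC6 by −1.19 with SPHK1-I. The difference between the inhibitors was 1.00 for CDC6 and 0.69 for MCM2. Without SPHK1-I sample 2, 2 of the 8 spindle genes were called lower with SPHK1-I in place of 0, and with SPHK2-I the counts were 5 of the 6 CDK1 genes and 3 of the 5 licensing genes in place of 3 and 1. Calls over the whole array were then also more frequent, 45 of the 84 genes with SPHK1-I in place of 30 and 55 with SPHK2-I in place of 24. Without B2M in the reference 0 of the 6 CDK1 genes were called with SPHK1-I in place of 2 and 1 licensing gene was higher with SPHK2-I than with SPHK1-I in place of 4.

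The size of the changes depended on the reference genes, which did not move together. Relative to the 4-gene reference, ACTB (β-actin, left out of it) changed by −0.55 with SPHK2-I and −0.29 with SPHK1-I, HPRT1 by −0.52 and −0.35, GAPDH by −0.15 and −0.29, RPLP0 by 0.25 and 0.04, and B2M by 0.42 and 0.61. The median of the 84 genes with SPHK2-I was accordingly 0.30 with ACTB alone as the reference and −0.67 with B2M alone, and the calls over the array were 7 lower and 22 higher with ACTB and 56 lower and 1 higher with B2M, in place of 20 lower and 4 higher. AURKA was called lower with SPHK2-I under each of the 8 other references tried, with log2 changes between −1.77 (B2M) and −0.80 (ACTB), and at −1.05 relative to the median of the 84 genes. It was not called by the methods' test on relative levels, with or without adjustment. MKI67 was called under 7 of the 8 and lost with ACTB (−0.45, limma adjusted p = 0.0580). AURKB was lost with ACTB (−0.22) and HPRT1 (−0.25). KPNA2 was called with 2 of the 8, all 5 housekeeping genes and B2M alone, and STMN1 changed sign with ACTB (0.12) and HPRT1 (0.09).

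With SPHK1-I, the calls of the 4 genes were lost when B2M was left out, and the array held 9 lower calls in place of 26, so the share of 31.0% depends on B2M as well. Without B2M in the reference none of the 5 was called by limma (0 of 5, 4 of 5 at an unadjusted p below 0.05), with changes of −0.46 for AURKB, −0.47 for STMN1, −0.74 for KPNA2 and −0.53 for MKI67 and adjusted p-values between 0.0956 and 0.0999. The 4 genes stayed below vehicle in sign under all 8 references, the smallest changes being those with HPRT1 alone (−0.31, −0.32, −0.59 and −0.38). The change of AURKA with SPHK1-I was positive under 6 of the 8 references. With B2M alone it was −0.63 and called lower (limma adjusted p = 0.0125), as were all 5 genes and 67 of the 84. The lower AURKA of SPHK2-I than SPHK1-I cells was called under 7 of the 8, between −1.47 (GAPDH) and −1.07 (ACTB), and not with RPLP0 alone (−1.54, limma adjusted p = 0.0893).

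**Figure D4:**
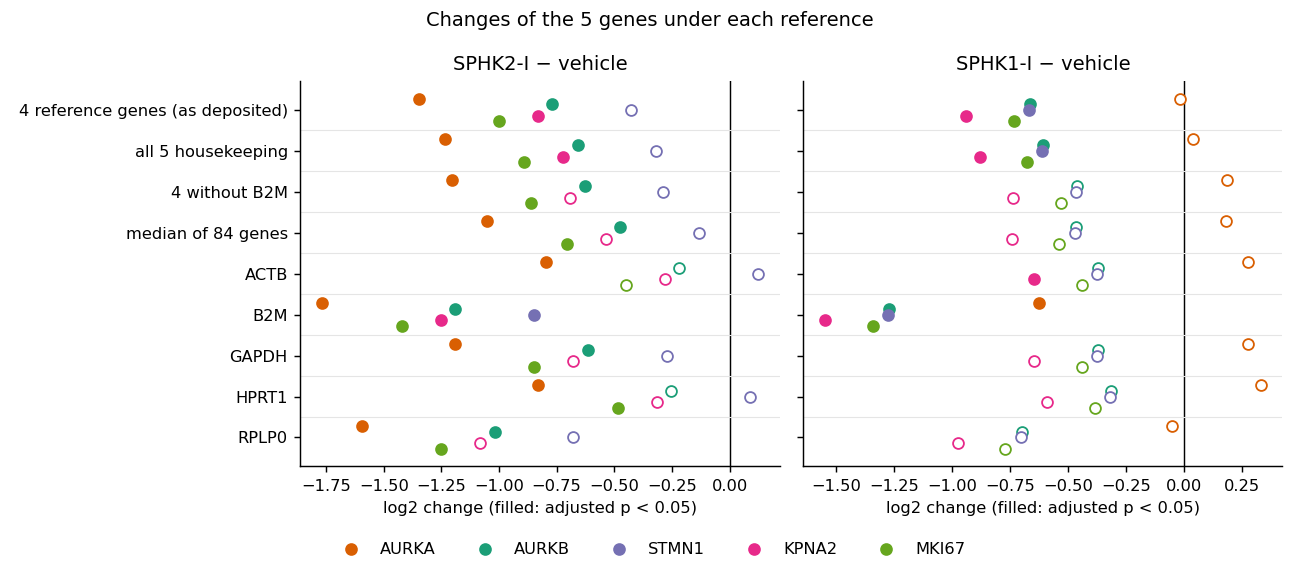
Log2 change of the 5 genes (x axis) under the deposited reference and 8 others (rows), for SPHK2-I against vehicle (left) and SPHK1-I against vehicle (right); filled points had an adjusted p below 0.05. AURKA is filled in every row on the left, from −1.77 with B2M to −0.80 with ACTB, whereas on the right AURKB, STMN1 and MKI67 are filled only with the deposited reference, all 5 housekeeping genes and B2M.

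The calls also depended on single samples, since each group holds 2. Leaving out either SPHK2-I sample or either vehicle sample left 0 of the 5 genes called lower with SPHK2-I, and 0 of the 84 in either direction (3 or 4 of the 5 at an unadjusted p below 0.05). The change of AURKA then lay between −1.56 and −1.13 with limma adjusted p-values of 0.100 to 0.206. Leaving out either SPHK1-I sample, which removes the spread of that group from the model, gave 5 of 5, with 55 of the 84 genes called in place of 24. For SPHK1-I against vehicle, 0 of the 5 were called without either vehicle sample or without either SPHK2-I sample, 5 without SPHK1-I sample 1 and 4 without SPHK1-I sample 2. The calls over the array in these fits were 0, 13, 64 and 45 of the 84 genes, in place of 30.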

How the data were processed

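The qPCR array (96 wells: 84 cell cycle genes, 5 housekeeping genes, 7 control wells) was run on RNA of 6 HMC-1.2 samples. The authors deposited threshold cycles (Ct) and ΔCt values, both on a log2 scale, with Ct limited to 35, from the array manufacturer's online analysis tool (version not given in the sources used here). The deposited relative levels are ratios (2 to the minus ΔCt). The ΔCt values of B2M, GAPDH, HPRT1 and RPLP0 sum to 0 within 1e-06 in each sample, which identified the reference. The authors' fold tables hold their own comparisons and were not used here.

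Changes are differences in mean −ΔCt, tested with limma (version 3.58.1, R version 4.3.3). All 3 groups entered 1 model, which had 3 residual degrees of freedom and a prior SD of 0.191 worth 4.33 more. Benjamini-Hochberg adjustment ran over all 84 genes, and calls required an adjusted p below 0.05. Ratios between genes were compared with a two-sided exact permutation test. The code was checked on simulated data. The named genes are the 5 members, the 2 genes nearest to each in profile, the 2 of smallest p in each of 3 lists per comparison, and the housekeeping genes, with all called genes of the lists also named; members and lists were chosen with earlier results of these data known. The same-numbered samples did not deviate together (correlations across genes of −0.04, −0.11 and −0.26 for the 3 pairings), and no pairing was assumed. Alternatives were other references, a Ct limit of 30, each sample left out, a replicate block, only the 2 groups compared, trend and robust settings of limma, and the methods' t-test on relative levels, whose form the sources used here do not give and which was taken as two-sided with equal variances. The list counts without SPHK1-I sample 2 and without B2M were added after seeing the data. Gene positions and promoters are from RefSeq (GRCh38.p14). The number of samples limits the precision.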

Additional observations from a re-analysis of the deposited data

How the results depend on the processing

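Of the 5 genes, 4 were called lower with SPHK2-I, 4 lower with SPHK1-I and 1 between the inhibitors. With SPHK2-I the count was 1 with ACTB alone, 2 with HPRT1 alone and 1 (MKI67) with the methods' t-test after Benjamini-Hochberg adjustment, and 0 to 5 with each sample left out. AURKA with SPHK2-I lost its call under the methods' t-test in both forms. The count was 5 with B2M alone, with limma's trend and robust settings and with only the 2 groups compared, where STMN1 gained its call, and KPNA2 lost its call with Ct values limited to 30 (limma adjusted p = 0.061). With SPHK1-I it was 1 with ACTB alone and 0 with GAPDH, HPRT1 or RPLP0 alone, without B2M, with the median of the 84 genes as reference, with only the 2 groups compared and with the adjusted methods' t-test, and 0 to 5 with each sample left out. Between the inhibitors it was 0 with RPLP0 alone, with only the 2 groups compared and with the methods' t-test in both forms, and 0 to 2 with each sample left out. With a replicate block the counts were 4, 4 and 1. With SPHK1-I the count was 5 under B2M alone. Calls over the 84 genes with SPHK2-I, 24 in the main fit, were 57 with B2M, 29 with ACTB and 34 with HPRT1. They were 55 with only the 2 groups compared, 26 with trend and robust settings and 17 with the adjusted t-test. With SPHK1-I, 30 in the main fit, they were 70 with B2M, 24 with ACTB, 8 with GAPDH, 14 with HPRT1 and 1 with RPLP0. They were 13 without B2M, 15 with the median gene, 13 with only the 2 groups compared and 0 with the adjusted t-test. Since a fit that leaves 1 sample in a group assumes that sample to vary like the others, losses there also follow from fewer samples.

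Signs turned in the following cases, for which the cause was not tested. STMN1 with SPHK2-I was 0.12 with ACTB and 0.088 with HPRT1. AURKA with SPHK1-I was 0.042 with all 5 housekeeping genes, 0.28 with ACTB and with GAPDH, 0.33 with HPRT1, 0.19 without B2M, 0.18 with the median gene, 0.038 as a ratio of mean levels in the methods' t-test, and −0.47 to 0.44 with each sample left out. Between the inhibitors, AURKB was 0.15 with ACTB, 0.082 with B2M and 0.062 with HPRT1 (−0.22 to 0.0053 with each sample left out), and KPNA2 was −0.032 with GAPDH and −0.11 with RPLP0 (−0.21 to 0.43). With each sample left out, the log2 difference of SPHK1-I over vehicle ranged over −0.093 to 0.10 for AURKB over STMN1, −0.10 to 0.65 for AURKB over KPNA2, −0.13 to 0.27 for AURKB over MKI67, −0.0055 to 0.55 for STMN1 over KPNA2 and −0.034 to 0.16 for STMN1 over MKI67. That of SPHK2-I over SPHK1-I ranged over −0.59 to 0.16 for AURKB over KPNA2, −0.035 to 0.36 for AURKB over MKI67 and −0.14 to 0.41 for STMN1 over KPNA2.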
